A study of Mus musculus with 36 samples.

Results

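Adipocyte genes were followed in mouse heart tissue from mid-gestation to adulthood: Adipoq, Cfd, Retn, Lipe, Cidec, Cidea, Plin1 and Ucp1, 8 genes that mark white or brown fat cells. The rows of the normalized expression table that carry one of these symbols were taken, with every probe set (a group of short probes that together read 1 transcript). This gave 8 probe sets for 7 of the 8 genes, out of 45101 probe sets for 20701 genes. Lipe had 2 probe sets, and Plin1 was not analysed here. The genes had been chosen by their values in the adult arrays, among them differences of Adipoq, Cfd and Retn between female and male arrays. Their adult values are therefore given as a description without a test, and only comparisons among embryonic arrays, which the choice did not use, were tested for them. The spread used in those tests came from all arrays, adult ones included.

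The hearts came from OF1 mice, with no treatment or genetic change named in the labels, at 12 stages. Embryos were sampled at E10.5 and then daily up to E19.5, and adults at a young age (10 weeks) and at an older one. The older mice, called old adult here, were 10 months old in the study's methods and 14 months old in the series' design text. Each stage had 3 arrays, 36 in all, so 30 arrays were embryonic and 6 adult. The E10.5 and E11.5 arrays held mixed sexes only, whereas every later stage had 1 female array, 1 male array and 1 array of mixed hearts, so the spread between arrays of a stage includes sex. Values are log2 intensities, and the study called a probe set expressed when its mean was above 5 in at least 1 stage.

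The labels' extraction protocol names liver, whereas the study's methods name heart. The marker genes measured were those of heart. The mean over 4 heart muscle markers (Tnnt2, Actc1, Tnni3 and Ryr2) lay between 10.69 and 11.73 on the embryonic and between 10.92 and 11.70 on the adult arrays, and 0 of 5 liver markers had a mean above 5 in an adult stage. Hybridization controls, bacterial transcripts added in fixed amounts, had means of 9.42 to 11.82 on embryonic, 11.86 to 12.28 on young adult and 10.97 to 11.34 on old adult arrays. The difference between the 3' and 5' probe sets of Gapdh, a sign of RNA quality, was 2.19 to 5.07 on embryonic, 1.39 to 2.25 on young adult and 2.06 to 2.63 on old adult arrays. The prefix of the sample titles changes from the E16.5 female array on, and the labels do not say whether this marks a batch.

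White adipocytes store triglyceride in 1 large lipid droplet and release hormones, whereas brown adipocytes burn fat for heat. Adipoq (adiponectin), Cfd (adipsin, the complement factor D protease) and Retn (resistin) are secreted by white fat. Lipe (hormone-sensitive lipase) cleaves stored lipid, Cidec and Cidea sit on lipid droplets, and Ucp1 uncouples respiration in brown fat mitochondria. Fat lies on and around the heart, and heart muscle itself takes up and burns fatty acids, so many genes of lipid storage are also active in cardiomyocytes. In whole hearts, fewer cells of a type and less RNA per cell cannot be told apart.

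The sequences before the starts of Adipoq, Cfd and Retn are shown because these 3 genes had the same order over the adult arrays, and that of Ucp1 because it did not share it. They are RefSeq sequences of assembly GRCm38.p6, each 250 bases that end at the base before the start, on the gene's strand, which is the plus strand for all 4. Adipoq lies at chr16:23146286-23146535, Cfd at chr10:79890603-79890852, Retn at chr8:3655520-3655769 and Ucp1 at chr8:83290098-83290347. Capitals mark AGGTCA, the element read by nuclear receptors such as PPARG.
Adipoq: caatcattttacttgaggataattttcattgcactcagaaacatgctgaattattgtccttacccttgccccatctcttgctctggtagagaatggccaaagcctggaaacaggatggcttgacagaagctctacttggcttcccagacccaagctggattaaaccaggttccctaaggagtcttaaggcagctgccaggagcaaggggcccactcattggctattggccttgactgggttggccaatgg
Cfd: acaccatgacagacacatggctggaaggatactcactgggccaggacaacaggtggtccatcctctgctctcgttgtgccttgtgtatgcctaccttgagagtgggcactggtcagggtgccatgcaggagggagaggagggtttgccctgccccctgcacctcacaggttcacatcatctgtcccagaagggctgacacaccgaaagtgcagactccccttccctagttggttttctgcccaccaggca
Retn: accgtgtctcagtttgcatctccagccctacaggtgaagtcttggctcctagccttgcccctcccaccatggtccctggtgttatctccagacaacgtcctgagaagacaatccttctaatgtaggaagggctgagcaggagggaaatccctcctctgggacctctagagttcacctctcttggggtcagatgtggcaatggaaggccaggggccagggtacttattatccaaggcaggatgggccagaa
Ucp1: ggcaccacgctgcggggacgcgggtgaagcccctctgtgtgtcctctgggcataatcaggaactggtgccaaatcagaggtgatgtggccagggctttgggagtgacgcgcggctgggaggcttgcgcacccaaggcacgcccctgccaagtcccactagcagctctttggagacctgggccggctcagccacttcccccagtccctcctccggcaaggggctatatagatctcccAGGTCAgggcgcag
Both strands were searched for AGGTCA, for AGGTCA repeated in the same direction after 1 base, for TTGCNNAA (the core read by C/EBP factors) and for TATAAA. Of 32851 promoters of the same length, 14.0% held AGGTCA, 0.0335% its repeat, 9.56% TTGCNNAA and 12.4% TATAAA. None of these letters occurred in the windows of Adipoq, Cfd or Retn, and Ucp1 held 1 AGGTCA, 14 to 9 bases before its start. Of the other promoters, those of Plin1 and Cidec (1 of 2 listed starts) held TTGCNNAA, 2 times and 1 time, and both Lipe windows held none of the letters. The windows are short, and the letters say nothing about binding.

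Adipoq, Cfd and Retn, the secreted proteins, were low on all embryonic arrays and differed widely between the 6 adult arrays. In each adult stage the female array was the highest, the mixed array lay between and the male array was the lowest, for all 3 genes. Adipoq had 6.24 on the young female, 5.17 on the young mixed and 4.02 on the young male array, and 5.56, 4.22 and 3.12 on the old female, mixed and male arrays. On the 30 embryonic arrays Adipoq ranged from 1.97 to 2.62 with a median of 2.26, so that every adult array lay above every embryonic one.

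Cfd had the widest spread of the 8 probe sets. Its young adult values were 9.19 (female), 7.20 (mixed) and 6.19 (male), and its old adult values 7.93, 6.05 and 5.29 in the same order. The embryonic values ran from 2.69 to 3.69 (median 3.07), and again no embryonic array reached an adult one. Retn had 6.53, 5.97 and 5.07 on the young female, mixed and male arrays and 6.34, 5.49 and 4.22 on the old ones. Its embryonic values, 3.63 to 4.86 with a median of 4.13, overlapped with the adult range: 10 embryonic arrays lay above the old male array.

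**Figure D1:**
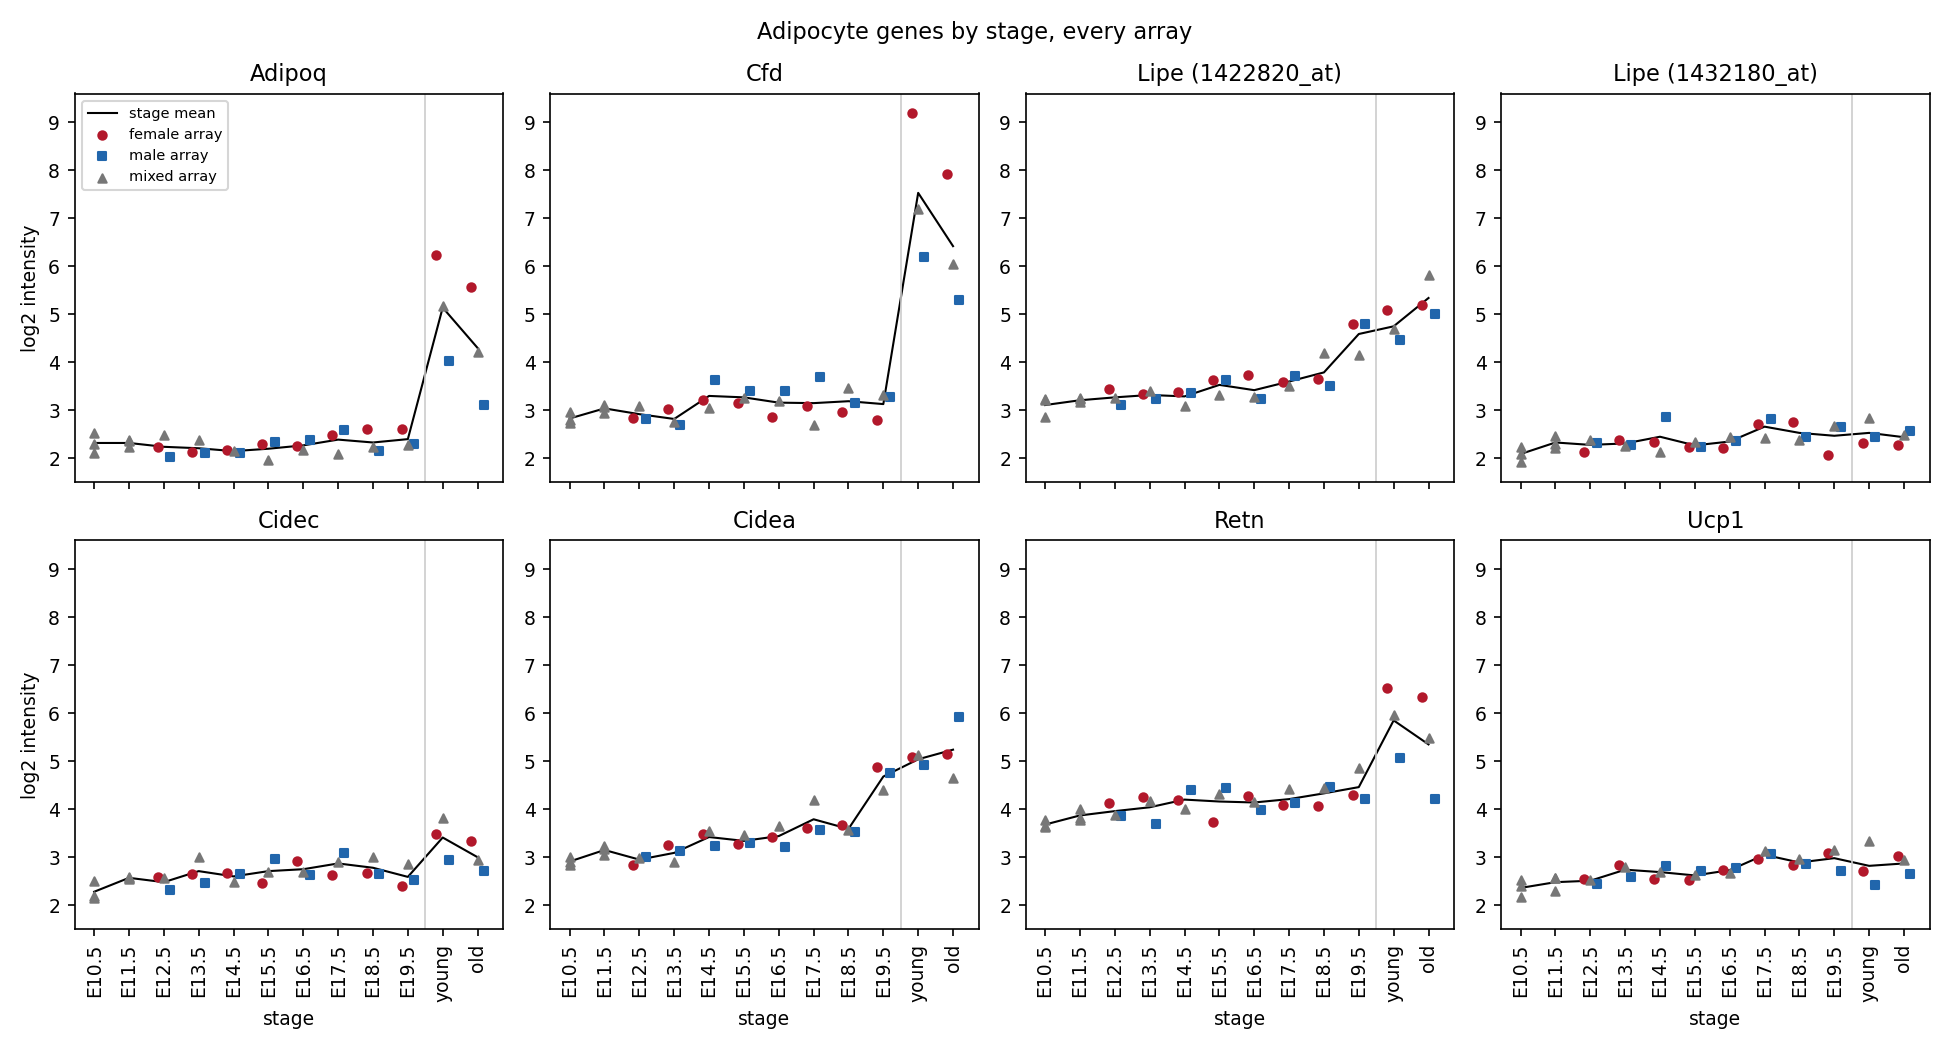
Log2 intensity (y axis) of the 8 probe sets of adipocyte genes on each of the 36 arrays by stage (x axis), with symbols for the sex label and a line through the stage means of 3 arrays. Adipoq, Cfd and Retn separate into female, mixed and male in both adult stages, Cidea and Lipe 1422820_at are higher at E19.5 than at E18.5, and Ucp1 stays at or below 3.33 on every array.

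The lipid droplet and lipolysis genes did not show this order. Cidea had 5.09 (female), 5.12 (mixed) and 4.93 (male) in young adults and 5.14, 4.66 and 5.93 in old adults, so the old male array was its highest. Lipe, read by probe set 1422820_at, had 5.09, 4.70 and 4.46 in young and 5.20, 5.82 and 5.00 in old adults on the female, mixed and male arrays, with the old mixed array highest. The other Lipe probe set, 1432180_at, lay between 1.93 and 2.87 on all 36 arrays and between 2.27 and 2.84 on the adult ones. It did not follow the other probe set, which reached 5.82.

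Cidec stayed low throughout: 3.49, 3.81 and 2.94 on the young female, mixed and male arrays, 3.34, 2.95 and 2.71 on the old ones, and 2.14 to 3.09 on embryonic arrays. Ucp1 was at or below 3.33 everywhere, with 2.71, 3.33 and 2.43 on the young female, mixed and male arrays, 3.03, 2.94 and 2.65 on the old ones and 2.18 to 3.15 in embryos. By the study's expression limit, 5 of the 7 measured genes (Adipoq, Cfd, Lipe, Cidea and Retn) had a mean above 5 in at least 1 stage and 0 of 7 in an embryonic stage; Cidec, Ucp1 and the lower Lipe probe set never passed it.

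All 6 adult arrays lay above all 30 embryonic arrays for 2 of the 7 genes, Adipoq and Cfd, against 5.35% of all genes. The order female above mixed above male in both adult stages held for 3 of 7 genes, against 2.92% of all genes. These genes were selected on adult values, so nothing is read from these counts.

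The size of the difference between the female and the male array can be given only as a value, with 1 array each. In young adults it was 2.22 for Adipoq (4.66-fold), 3.00 for Cfd (8.03-fold) and 1.46 for Retn (2.74-fold). In old adults it was 2.44 for Adipoq, 2.63 for Cfd (6.20-fold) and 2.12 for Retn (4.35-fold), the first a lower limit because Adipoq was near the low end of the scale on the old male array (3.12). A difference above 1 on the log2 scale was found in 3 of 7 genes in young adults, where 1.82% of all genes passed it, and in 3 of 7 in old adults, where 1.28% did. Such differences were among the values that chose the genes, so nothing is read from these counts. For the other probe sets the adult difference lay between −0.79 (Cidea, old adult) and 0.64 (Lipe 1422820_at, young adult).

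Over the 8 embryonic stages with a female and a male array the same differences stayed between −0.71 and 0.56 for these 3 genes and had no constant sign. Adipoq lay between −0.14 and 0.47 and was higher on the female array in 5 of 8 stages. Cfd lay between −0.62 and 0.34, with the female array higher in 2 of 8 stages, and Retn between −0.71 and 0.56, with 4 of 8. No difference between embryonic and adult sex effects was tested, since each stage held 1 pair and the adult pairs chose the genes.

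**Figure D2:**
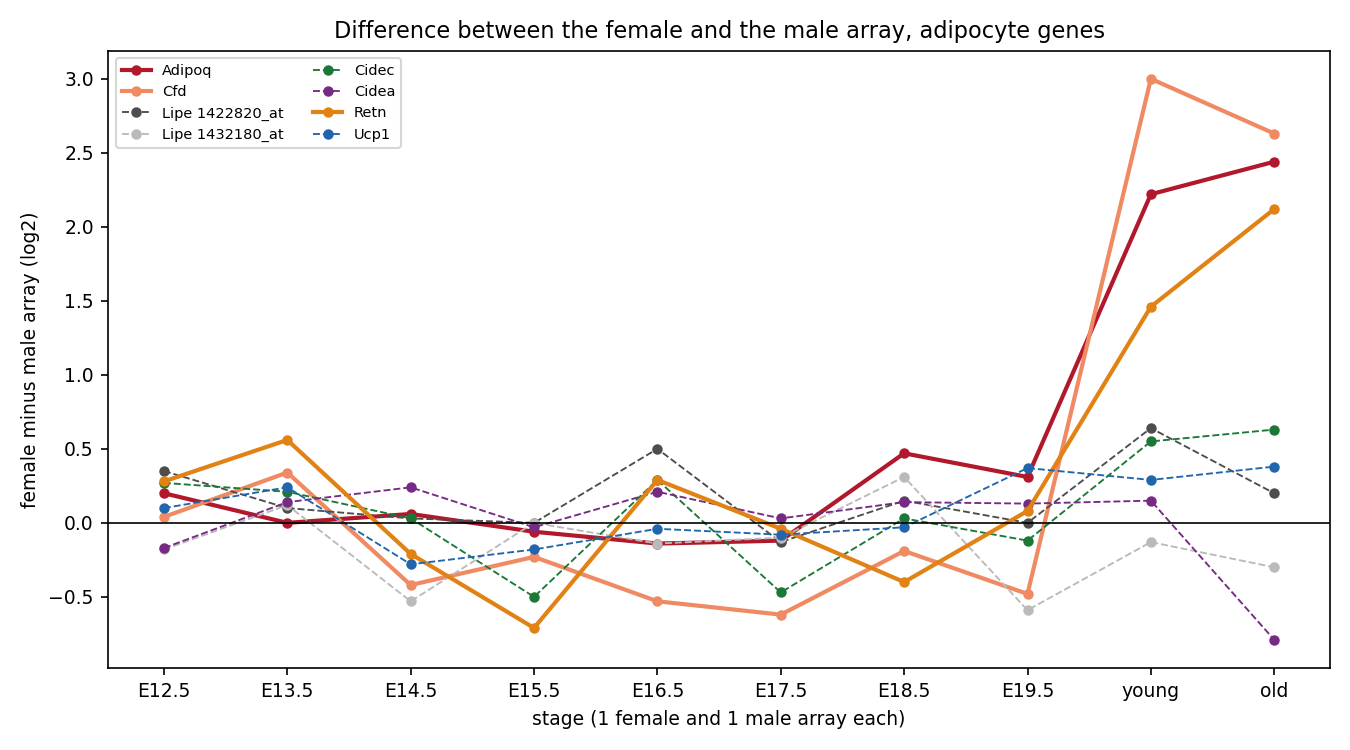
Log2 difference between the female and the male array (y axis) of each adipocyte gene probe set in every stage from E12.5 on (x axis), 1 pair of arrays a stage. Solid lines mark Adipoq, Cfd and Retn, which leave the range of −0.71 to 0.56 seen in embryos and reach 1.46 to 3.00 in the adult stages; broken lines mark the other genes.

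Old adults were lower than young adults in each sex label for Adipoq, Cfd, Retn and Cidec, 4 of 7 genes, against 17.9% of all genes. The genes were chosen on adult values and Cidec never passed the expression limit, so nothing is read from this count. For Adipoq, old minus young was −0.68 on female, −0.95 on mixed and −0.90 on male arrays. For Cfd the differences were −1.27, −1.15 and −0.90, and for Retn −0.18, −0.47 and −0.85. Lipe 1422820_at went the other way in all 3 labels, with 0.11 (female), 1.13 (mixed) and 0.55 (male). The stage means of Adipoq were 5.14 ± 1.11 (SD, n = 3) in young and 4.30 ± 1.22 in old adults, so the difference of −0.84 was smaller than the spread within either stage, which includes sex. Hybridization controls were also lower on old than on young adult arrays, without overlap, and their part in these differences was not tested.

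Between E19.5 and young adult, the log2 difference of the stage means was 2.75 ± 0.37 (SE) for Adipoq, 4.40 ± 0.46 for Cfd and 1.40 ± 0.32 for Retn (2.63-fold). The E19.5 means of Adipoq (2.40) and Cfd (3.13) lay near the low end of the scale, where array background limits the values, so their differences are lower limits. The difference was 0.82 ± 0.19 for Cidec, 0.37 ± 0.20 for Cidea, 0.16 ± 0.20 and 0.06 ± 0.17 for the Lipe probe sets and −0.16 ± 0.16 for Ucp1. These SEs rest on a spread shared over all stages, not on the arrays compared alone. The SD of the young adult arrays was 1.11 for Adipoq, 1.53 for Cfd and 0.73 for Retn. The 3 young adult arrays all lay above the 3 E19.5 arrays for Adipoq, Cfd, Cidec, Cidea and Retn, 5 of 7 genes, where 18.7% of all genes did so. Nothing is read from this count, since the adult values chose the genes. Gapdh 3' minus 5' went from 3.72 to 4.13 at E19.5 to 1.39 to 2.25 in young adults and the hybridization controls from 10.75 to 11.17 to 11.86 to 12.28, both without overlap, and their part in these differences was not tested.

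Among embryos, where these genes could be tested, Cidea and 1 of 2 Lipe probe sets rose towards birth while Adipoq and Cfd did not pass the test. The test took a shared spread per probe set from all stages, so the wide adult spread of Adipoq and Cfd raised their SE here. For Cfd the SD was 0.12 at E10.5 and 0.29 at E19.5, beside 1.53 in young and 1.35 in old adults. Not passing therefore does not show that their level stayed constant. Cidea had 2.91, 3.00 and 2.83 on the E10.5 arrays and 4.88, 4.75 and 4.41 on the E19.5 female, male and mixed arrays, without overlap. Its difference of 1.77 ± 0.20 (SE) had a limma adjusted p of 1.95e-08. Lipe 1422820_at had 3.23, 2.87 and 3.22 at E10.5 and 4.80, 4.80 and 4.15 at E19.5, also without overlap, and rose by 1.48 ± 0.20 (adjusted p = 7.06e-07 in limma). Lipe 1432180_at did not pass, with 0.38 ± 0.17 (limma adjusted p = 0.0709).

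Smaller changes were found for Ucp1, with 0.62 ± 0.16 (limma adjusted p = 0.00223), and for Retn, with 0.77 ± 0.32 (limma adjusted p = 0.0483). The means of Ucp1, 2.36 at E10.5 and 2.98 at E19.5, lay near the low end of the scale. The call of Retn was lost without any 1 of 5 of the 6 arrays compared and under quantile normalization. Adipoq had 2.32 ± 0.20 (SD, n = 3) at E10.5 and 2.40 ± 0.19 at E19.5, a difference of 0.08 ± 0.37 (SE; limma adjusted p = 0.864) that turned to −0.10 under quantile normalization. Cfd differed by 0.30 ± 0.46 (limma adjusted p = 0.604) and Cidec by 0.31 ± 0.19 (limma adjusted p = 0.184). Of the 7 genes 4 were called higher, where 26.2% of all genes were, and 0 were called lower, where 23.6% were; all 7 differences were above 0. Their median difference was 0.62, beside 0.16 over all genes. Hybridization controls moved the same way, from 9.42 to 10.10 at E10.5 to 10.75 to 11.17 at E19.5, and their part was not tested.

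Most of the increase of Cidea and Lipe 1422820_at lay between E18.5 and E19.5. Cidea was 3.59 ± 0.07 (SD, n = 3) at E18.5 and 4.68 ± 0.24 at E19.5, 1.09 higher, and its E18.5 arrays (3.67, 3.52 and 3.57) lay below all E19.5 arrays. Lipe 1422820_at was 3.79 ± 0.37 at E18.5 and 4.59 ± 0.37 at E19.5, 0.80 higher, but its E18.5 mixed array, at 4.20, lay above the E19.5 mixed array. For the other probe sets the step was between −0.19 and 0.13. This step was picked after the values were seen and has no test.

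With more arrays, the mean of E16.5 to E19.5 was set against that of E10.5 to E13.5, 12 arrays on either side. Cidea rose by 0.85 ± 0.10 (SE; limma adjusted p = 1.68e-08), Lipe 1422820_at by 0.62 ± 0.10 (limma adjusted p = 5.90e-06) and Ucp1 by 0.39 ± 0.08 (limma adjusted p = 0.000113). Ucp1 was again near the low end of the scale. Retn (0.40 ± 0.16), Cidec (0.24 ± 0.10) and Lipe 1432180_at (0.25 ± 0.09) also passed, with limma adjusted p values of 0.0328, 0.0317 and 0.0138, but lost the call under quantile normalization. Adipoq had 0.07 ± 0.19 (limma adjusted p = 0.733), or −0.05 under quantile normalization, and Cfd 0.25 ± 0.23 (limma adjusted p = 0.332). The SEs of Adipoq and Cfd were again raised by their adult spread. The 5 of 7 genes called higher compare with 39.7% of all genes, and the 0 called lower with 27.0%; again all 7 differences were above 0.

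To place these genes in their pathway, 54 further genes of fat cells and lipid storage were read, each from its probe set of highest mean. Another of the listed genes, Cpt1b, was not analysed here. From E10.5 to E19.5, 25 of the 54 rose and 8 fell at a limma adjusted p under 0.05, where 26.2% and 23.6% of all genes did. The 5 genes of fatty acid uptake and binding had a median difference of 3.56, beside 0.16 over all genes: Fabp4 (a fatty acid carrier of fat cells and capillaries) rose by 8.86, Cd36 (a fatty acid transporter) by 4.14, Gpihbp1 (the capillary anchor of lipoprotein lipase) by 3.56 and Lpl (lipoprotein lipase) by 1.64, while Fabp5 did not pass. Of 9 droplet and lipolysis genes, 5 rose (Mgll by 4.64, Plin4 by 3.74, Plin5 by 3.48, Pnpla2 by 1.37 and Abhd5 by 0.50). Abhd5 had probe sets called in both directions.

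Among transcription factors, Pparg, the main regulator of fat cell formation, rose by 1.60, Cebpa by 0.95 and Mlxipl by 1.80, and Zfp423 fell by 0.70. The E19.5 means of Pparg (4.48) and Cebpa (3.66) lay below the expression limit of 5. Lipid synthesis was divided. Dgat2 rose by 1.37, Thrsp by 0.58, Dgat1 by 0.51 and Gpd1 by 0.49, whereas Elovl6 (fatty acid elongation) fell by 2.84, Acly by 0.88, Me1 by 0.85, Acaca by 0.69 and Agpat2 by 0.38. Of the remaining genes Agt (1.01), Slc2a4 (1.49) and Sncg (0.49) rose, and Car3 fell by 1.17 and Nnat by 0.79. The E19.5 means of Thrsp (4.87), Gpd1 (4.32), Agt (4.44) and Sncg (3.80) also lay below the expression limit. Nnat lay below it at both stages (4.05 and 3.26).

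Of 10 measured genes listed for brown adipocytes, 6 rose: Cox8b by 4.79, Cox7a1 by 1.86, Ebf2 by 1.41, Dio2 by 0.95, Ppargc1a by 0.81 and Prdm16 by 0.57. The E19.5 means of Ebf2 (4.11) and Dio2 (4.67) lay below the expression limit of 5. Cox8b and Cox7a1, subunits of cytochrome c oxidase, and Ppargc1a are also expressed in heart muscle. Zic1, Otop1 and Elovl3, also on this list, had stage means of at most 2.60 at E10.5, E19.5, young and old adult. Over E16.5 to E19.5 against E10.5 to E13.5, 32 of the 54 genes rose and 13 fell, where 39.7% and 27.0% of all genes did. These splits changed when each array's median over probe sets with a mean above 5 was set equal. They were then 37 higher and 2 lower for E19.5 against E10.5, and 38 and 8 for late against early stages. The centring also moved the median difference of all genes, by 0.34 and 0.21. The share of all genes called under this setting is not given here, so nothing is read from these counts.

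Between E19.5 and young adult, 22 of the 54 genes rose and 6 fell, where 14.7% and 17.0% of all genes did, and their median difference was 0.46 beside 0.05 over all genes. The shifts of Gapdh 3' minus 5' and of the hybridization controls between these stages, given above for the adipocyte genes, move with this comparison too, and their part was not tested. By the study's rule (adjusted p under 1e-05, an absolute log2 difference above 2 and the expression limit), 4 were higher: Scd1 (stearoyl-CoA desaturase) by 4.53 ± 0.29 (SE), Car3 (carbonic anhydrase 3, abundant in fat and muscle) by 3.51 ± 0.44, Rbp4 (a retinol carrier secreted by fat and liver) by 2.52 ± 0.23 and Gpihbp1 by 2.04 ± 0.23. Of all genes, 0.787% passed this rule upwards and 1.02% downwards. Of the 54, 0 passed downwards, while 8 were lower at an unadjusted limma p under 0.05.

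Droplet and lipolysis genes held 6 of 9 that rose, Plin5 by 1.84, Abhd5 by 1.23, Adrb3 (the lipolytic adrenergic receptor) by 1.07, G0s2 by 0.88, Plin2 by 0.70 and Aqp7 by 0.67. Of 12 synthesis genes 6 rose, besides Scd1 also Agpat2 (1.14), Dgat2 (1.08), Me1 (1.00), Pck1 (0.57) and Gpd1 (0.55), and Dgat1 fell by 0.64. The young adult means of Adrb3 (3.93), Aqp7 (3.44), Pck1 (3.55) and Gpd1 (4.87) lay below the expression limit of 5. Mlxipl (1.34), Klf15 (1.05) and Cebpb (0.81) rose among the transcription factors, Srebf1 fell by 1.42 and Zfp423 by 0.76, and Pparg, with 0.44 ± 0.27, did not pass.

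Lpl (0.76), Sncg (1.69), Trarg1 (0.62) and Ebf2 (0.99) also rose, and Fabp5 fell by 0.96. The young adult mean of Trarg1 (4.36) lay below the expression limit too. Fabp4, with 12.03 at E19.5 and 12.31 in young adults, did not pass the test (0.28 ± 0.42). Ppargc1a fell by 0.90 and Prdm16 by 1.48, although Prdm16 had probe sets called in both directions. Lep (leptin) had stage means of 2.58 (E19.5), 2.72 (young adult) and 2.41 (old adult). It did not pass either comparison.

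**Figure D3:**
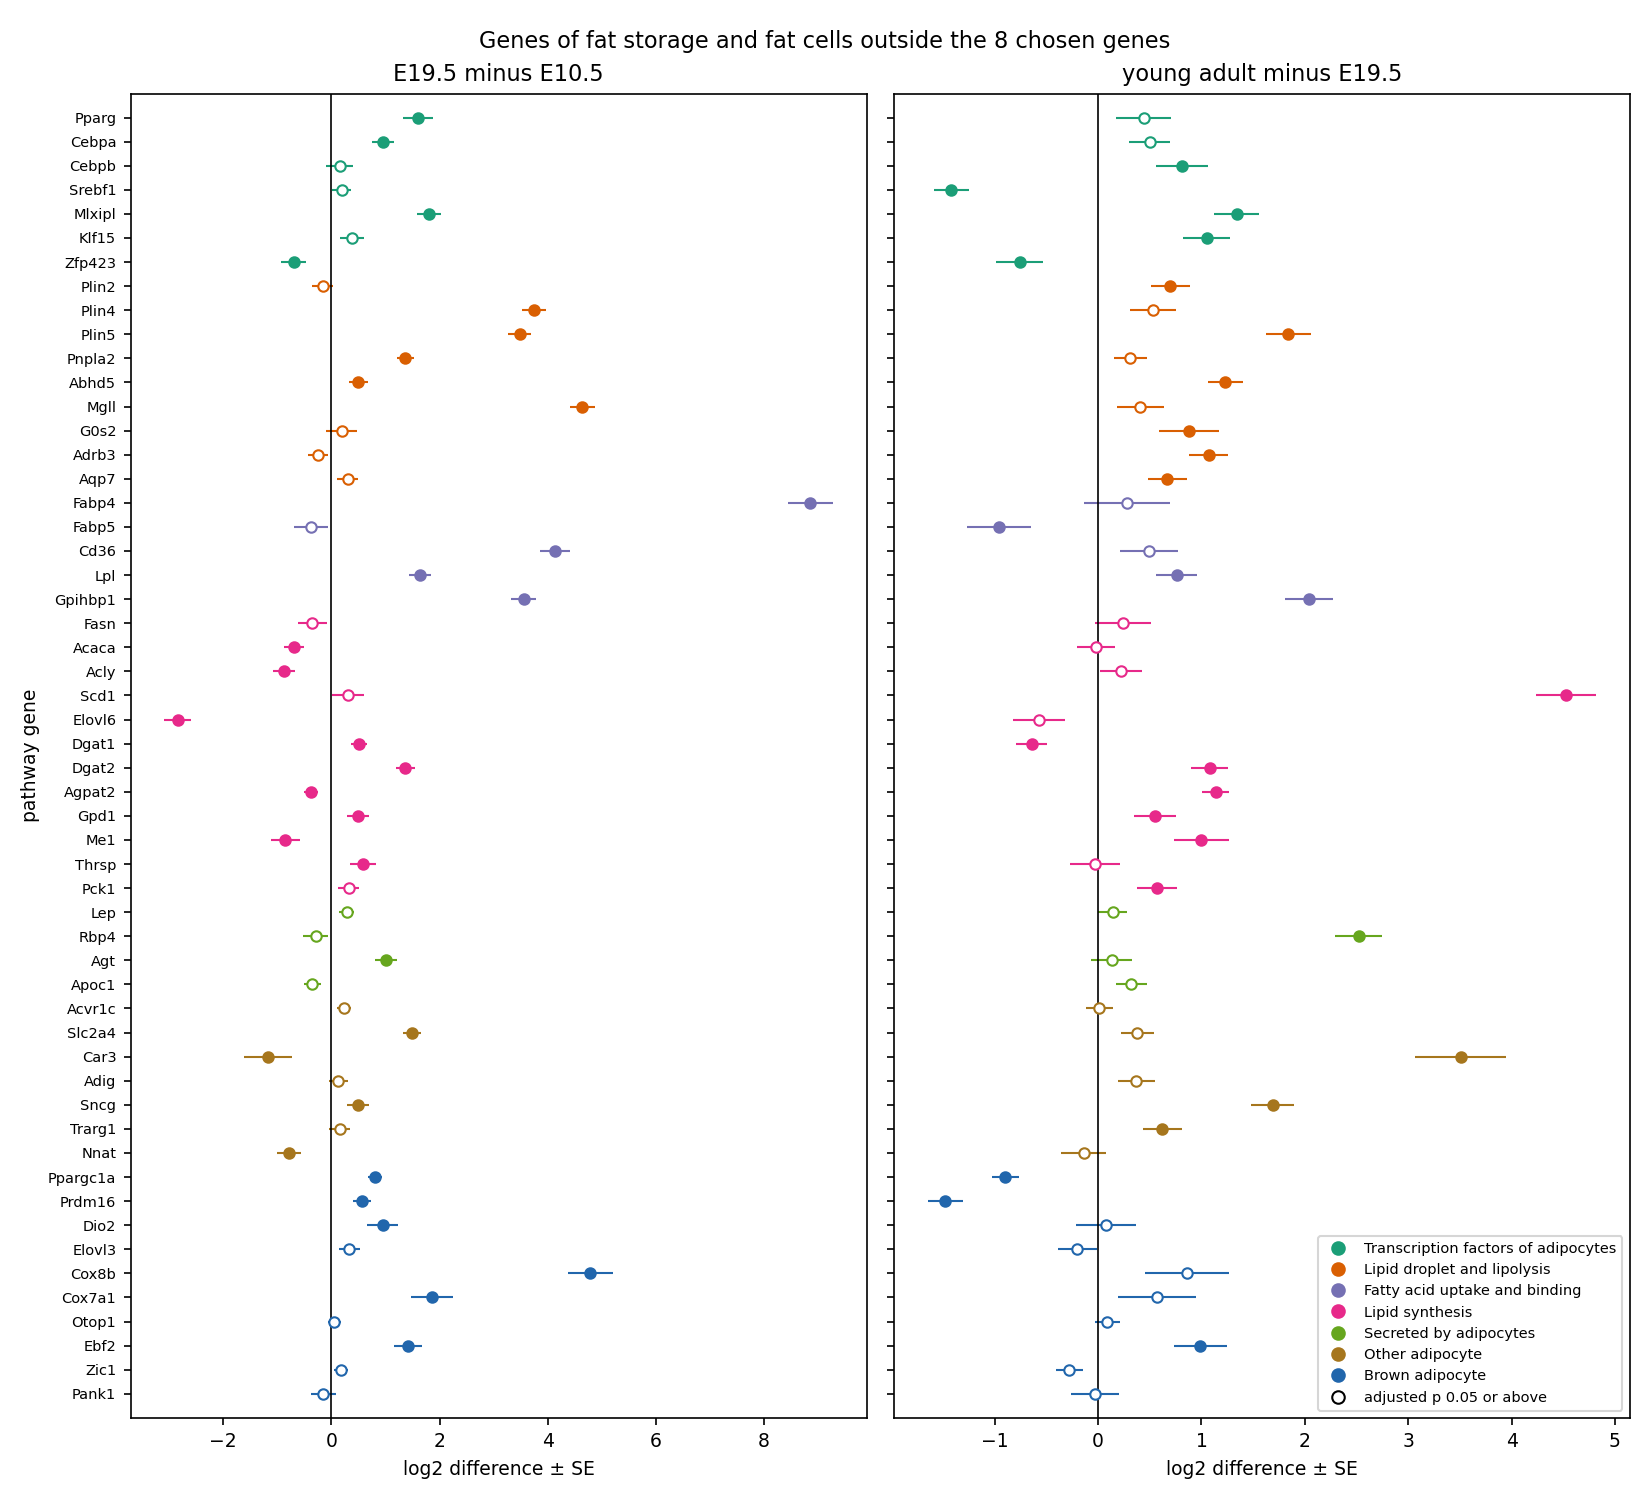
Log2 difference with its SE (x axes) of 54 genes of fat storage and fat cells (y axis), coloured by list, for E19.5 minus E10.5 (left) and young adult minus E19.5 (right), 3 arrays a stage. Filled points passed an adjusted p of 0.05 in limma; Fabp4, at 8.86, lies farthest right in the embryonic comparison, and Scd1 (4.53), Car3 (3.51) and Rbp4 (2.52) in the adult one.

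Between young and old adults, 3 of the 54 genes fell and 0 rose in limma, where 3.13% and 4.46% of all genes did. Rbp4 had 6.27 (female), 5.14 (mixed) and 5.02 (male) in young and 4.48, 3.68 and 3.72 in old adults, without overlap, and fell by 1.52 ± 0.23 (SE; adjusted p = 0.00018). Adrb3 fell by 0.82 ± 0.19 and Plin4 by 0.73 ± 0.22 (limma adjusted p = 0.009 and 0.0354). The means of Adrb3, 3.93 in young and 3.11 in old adults, lay below the expression limit. At an unadjusted p under 0.05, 6 genes were higher and 6 lower. With the sex label as a block on the 6 adult arrays, which left 5 of 45101 probe sets called in all, 0 of the 54 were called, and the adjusted p values of Rbp4, Adrb3 and Plin4 were 0.114, 0.163 and 0.178; 4 genes were then higher and 5 lower at an unadjusted p under 0.05. Without the old male array only Rbp4 was called lower, and without the old female array 4 were lower and 3 (Cebpb, Mgll and Gpihbp1) higher. The lower hybridization controls on old adult arrays move with this comparison too, and their part was not tested.

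Some pathway genes had the adult order of Adipoq, Cfd and Retn. The order female above mixed above male in both adult stages held for 7 of the 54 genes (Scd1, Elovl6, Car3, Acaca, Adrb3, Acvr1c and Zic1), against 2.92% of all genes. Of these, Acvr1c (at most 3.08) and Zic1 (at most 2.20) were near the low end of the scale on all adult arrays. Adrb3, at most 4.16 on adult arrays, also stayed below the expression limit. So did Elovl6 on the adult arrays, where it was at most 4.78. A female minus male difference above 1 was found in 9 of 54 in young adults (Fasn, Scd1, Car3, Ebf2, Nnat, Elovl6, Rbp4, Me1 and Acaca), against 1.82% of all genes, and in 3 of 54 in old adults (Scd1, Elovl6 and Car3), against 1.28%. Nnat was at most 3.71 on the adult arrays, below the expression limit. The pathway lists were chosen with earlier results of these data known, and each stage held 1 female and 1 male array. Nothing is therefore read from the counts in this paragraph. Car3 had 10.64, 10.37 and 8.83 on the young female, mixed and male arrays and 10.54, 9.27 and 7.72 on the old ones. For Scd1 the values were 10.62, 9.69 and 8.76, and 10.07, 9.97 and 8.86. Fabp4, by contrast, had a female minus male difference of 0.08 in young and −0.10 in old adults.

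Over the 6 adult arrays Pearson's r with Adipoq was 0.979 for Cfd, 0.978 for Retn, 0.822 for Cidec, 0.403 for Ucp1, 0.0495 for Lipe 1422820_at, −0.339 for Lipe 1432180_at and −0.398 for Cidea. Among 607 probe sets of other genes with an adult range above 2, the 10 genes most like Adipoq were Car3 (r = 0.967), Cyp2e1 (0.958), Efhd1 (0.882), Xist (0.879), Fasn (0.871), Scara3 (0.870), Col14a1 (0.841), Akr1b10 (0.840), Npnt (0.837) and Gabra3 (0.825). Cyp2e1, a cytochrome P450, had 6.41, 5.83 and 5.34 on the young female, mixed and male arrays and 6.0, 4.95 and 3.93 on the old ones. Xist, the RNA of X inactivation, had 9.17 and 9.51 on the female, 9.41 and 7.51 on the mixed and 3.74 and 3.30 on the male arrays of young and old adults. It was high on female and low on male arrays, as their labels say. The young mixed array lay above the young female one, so Xist does not show a share of male hearts there.

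Over all 36 arrays, where r mainly reflects 6 adult against 30 embryonic arrays, the most similar other genes were BB144871 (0.955), Cyp2e1 (0.955), Samd12 (0.948), Scd1 (0.931), Pamr1 (0.928), Sod1 (0.927), Ano10 (0.925), Ces1d (0.923), Ifi207 (0.920) and Efhd1 (0.919). Sod1 is read here by 1447761_x_at, which stayed at or below 2.84 on every array. Cfd (0.972) and Retn (0.900) were the most similar of the chosen genes. These points share arrays and normalization, and r is given as a description of likeness.

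Markers of other cell types were read on the same 6 arrays. None of the 13 lists had means in the order female, mixed, male in both adult stages, and 1 single marker of the mesothelium and epicardium list did. The female minus male difference of the list means was −0.51 to 0.59 in young adults, the highest for fibroblast markers. In old adults it was 2.17 for the atrial markers (Nppa, Myl4, Myl7, Sln and Bmp10) and 1.05 for the mesothelium and epicardium markers, and −0.35 to 0.58 for the other lists. On the old female array 4 of 5 atrial and 6 of 8 mesothelium and epicardium markers were higher than on the old male array. Nppa (12.97 against 13.41), Wt1 (4.80 against 5.69) and Krt8 (4.80 against 5.06) were lower. In young adults the atrial list was 0.31 lower on the female array, with 1 of 5 markers higher. The part of tissue composition in the female and male values was not tested. Gapdh 3' minus 5' was 1.87, 2.25 and 1.39 on the young and 2.06, 2.28 and 2.63 on the old female, mixed and male arrays. On the old arrays this is the reverse of the order of Adipoq. On the young arrays it is neither that order nor its reverse. Its part in the female and male values was not tested.

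**Figure D4:**
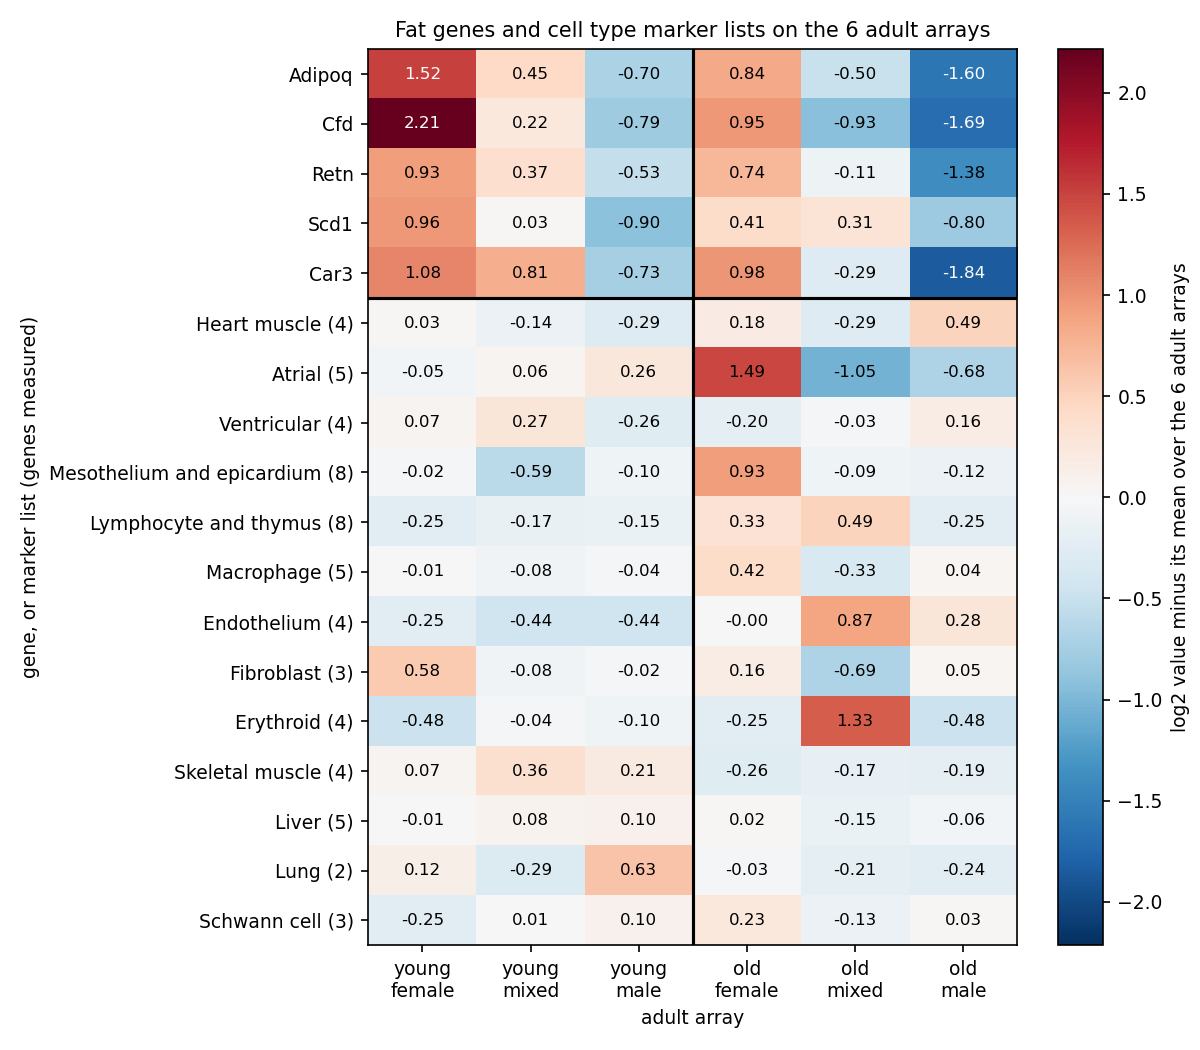
Log2 value minus its mean over the 6 adult arrays (colour and printed value) for Adipoq, Cfd, Retn, Scd1 and Car3 (top) and for the means of 13 cell type marker lists with the number of genes measured (bottom), 1 column an array. The fat genes shown were picked from those that go from higher on female to lower on male arrays in both stages. Only 7 of the 54 pathway genes had this order, and Cidea and Fabp4, not shown, did not. The atrial list is highest on the old female array and the erythroid list on the old mixed array.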

How the data were processed

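Per the labels, RNA of 36 heart samples was hybridized to 1-colour Affymetrix arrays. The values deposited by the authors are log2 intensities made by robust multi-array average (RMA, which removes background, makes the distributions of single probe values equal between arrays and combines the probes of a probe set). The submitters' processing notes also name Affymetrix Expression Console and Partek 6.6. The deposited probe set values still differed in scale: array medians over probe sets with a mean above 5 lay −0.32 to 0.31 from their mean. The deposited values were used without further scaling. Gene IDs came from the table, and names from RefSeq (GRCm38.p6) for 18342 gene IDs; 6937 probe sets had no gene ID.

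A model with 12 stage means on all 36 arrays was fitted in R 4.3.3 with limma 3.58.1, with Benjamini-Hochberg adjustment over all 45101 probe sets in each comparison. The spread of each probe set was estimated over all stages together, so an SE can differ from the spread of the arrays compared. Adjusted p values in the text are from limma, with a limit of 0.05. For counts, each gene was read from its probe set of highest mean over all arrays. Likeness to Adipoq was Pearson's r. Tables and figures were made in Python 3.11.15 with pandas 2.3.3 and matplotlib 3.10.9. The fit was tested on simulated data. Alternatives were another scaling, the expression limit before the fit, other probe sets, the study's rule, the sex label as a block (for young adult minus E19.5 added after seeing the data) and leaving out arrays.

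The adipocyte genes, pathway lists and marker lists were chosen with earlier results of these data known. Named are all chosen genes, the called pathway genes with others of high mean, and the 10 genes most like Adipoq over 36 and over 6 arrays. The number of arrays, 3 a stage, limits the precision. They are called biological replicates in the methods, of 1 female, 1 male and 1 mixed sample. The microRNA arrays were not analysed here.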

Additional observations from a re-analysis of the deposited data

How the results depend on the processing

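The counts of pathway genes stayed within 1.5 times under 61 of 74 alternatives, and 13 moved. For young adult minus E19.5 (22 higher, 6 lower) the study's rule left 4 higher and 0 lower, and leaving out 1 array gave 18 to 23 higher and 4 to 7 lower. For old minus young adult (0 higher, 3 lower), the expression limit before the fit gave 1 higher, counting any called probe set gave 2 higher and 7 lower, the sex label as a block gave 0 lower, and leaving out 1 array gave 0 to 3 higher and 1 to 4 lower. For E19.5 minus E10.5 (8 lower), quantile normalization gave 4 lower and median centring 2, and leaving out 1 array gave 20 to 25 higher and 6 to 8 lower. Median centring gave 8 lower for late minus early stages. The centring itself moved the median of all genes by 0.34 (E19.5 minus E10.5), 0.21 (late minus early), 0.18 (young adult minus E19.5) and −0.14 (old minus young adult); no other cause of these moves was tested. Of 276 recomputed log2 differences of the adipocyte genes, 259 kept their direction and their side of the test or, untested, moved by less than the spread between arrays. The exceptions were calls of Retn, Cidec and Lipe 1432180_at that were lost or gained, the untested old female minus male difference of Lipe 1432180_at, and Adipoq in embryos, which was not called in any setting: for E19.5 minus E10.5 it was −0.10 under quantile normalization and −0.03 to 0.19 with 1 array left out, and for late minus early stages −0.05 under quantile normalization. Leaving out 1 adult array gave 2.20 to 3.31 for Adipoq and 3.56 to 5.06 for Cfd in young adult minus E19.5, and −1.47 to −0.25 and −1.86 to −0.27 in old minus young adult. For Retn it gave 1.06 to 1.79 and −1.0 to 0.06, the last without the old male array. No paired analysis was possible by array number because the numbers in the labels recur only at E10.5 and E11.5, which were not compared with each other. The sex label matches arrays across later stages: as a block on the 6 arrays of E19.5 and young adult, chosen after seeing the data, it gave 20 higher and 6 lower pathway genes, 25 of them also called without the block. E10.5 held mixed arrays only, so its arrays cannot be matched by sex with those of E19.5. Values near the low end of the log2 scale, as for Ucp1, Cidec and embryonic Adipoq, are close to the background of the array and limit what small differences can show.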
